A study of Rattus norvegicus with 8 samples.

Results

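Hepatic stellate cells and the extracellular matrix they lay down were followed here through 45 listed genes in rat liver. The genes cover stellate cell markers, collagens, the enzymes that process and cross-link collagen, proteoglycans, elastic fibre proteins and the proteases and inhibitors that turn matrix over. Each gene was taken from the probe set that lists its symbol alone, and 35 of the 45 were measured among the 14511 genes tested. Pcolce2, Col4a2, Col6a1, Col6a2, Col6a3, Col15a1, Col18a1, Lamb1, Nid1 and Ecm1 were not analysed here. The genes were listed for what they are known to do, with earlier results of these data known.

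All rats were healthy females of the Wistar strain, an outbred laboratory stock, with no transgene or drug named. The 4 groups were livers at 2, 4 and 12 weeks of age and the liver that remained at 8 h when partial hepatectomy (PH) had taken out the lateral lobes. Each group had 2 Affymetrix Rat Gene 1.0 ST arrays, which gave 1 log2 level per probe set. The study set regeneration after surgery beside development and the adult liver. How old the operated rats were is not stated in the labels and sham-operated rats were not analysed here, so effects of surgery, of age and of the hour of sampling cannot be told apart. The titles speak of biological replicates and the design text of duplicates, so the p-values measure the spread between arrays, which may be technical.

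Hepatic stellate cells are pericytes that lie between the sinusoidal endothelium and the hepatocytes and store vitamin A. When activated they become contractile and make most of the fibrillar collagen of a scarred liver, a role they share with the fibroblasts around portal veins. Fibrillar collagen is secreted as procollagen, trimmed at both ends, assembled into fibrils with the help of proteoglycans and minor collagens, and cross-linked by lysyl oxidases. Metalloproteinases and their tissue inhibitors then set how fast it is removed. In whole liver RNA, fewer cells of a type and less RNA per cell cannot be told apart.

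The arrays of a group correlated over all genes with r between 0.952 and 0.980, and genes are not independent replicates. Across the stellate cell and matrix genes the pairs were less alike at 4 weeks (r = 0.852) than at 2 weeks (0.951), at 12 weeks (0.925) or after PH (0.976). At 4 weeks the first array was higher for 31 of the 35, by a median of 0.83 on the log2 scale. It was at least 2-fold higher for 14 of them (40%), against 1.38% of all genes. In either direction 4.28% of all genes were at least 2-fold apart, more of them higher on the second array. Hepatocyte markers were high on every array, with a list median between 13.02 and 13.51 over 10 of 10 genes, as the tissue label says. Differences of the 35 genes that use the 4-week group are therefore given with and without the first 4-week array.

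The matrix genes were highest in young liver. The mean level was highest at 2 weeks for 20 of the 35 genes and at 4 weeks for 13, and it was lowest at 12 weeks for 19 and after PH for 14. These counts include the first 4-week array and were not made over all genes. Of the 13, only Lrat, Tagln, Pcolce and Bgn were highest at 4 weeks when the second array stood alone for that group. Timp1 alone had its highest mean after PH, and Timp3 alone at 12 weeks. Timp3 and Mmp14 had their lowest mean at 4 weeks. A gene is called changed below when limma's adjusted p over all 14511 genes was under 0.05, and it is said to stand apart when the group means differed at least 2-fold (1 on the log2 scale) and the arrays of the groups did not overlap. Standing apart is a description without a test.

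At 2 weeks the liver expressed more of these genes than at 12 weeks. Pcolce, Col14a1, Mmp2, Loxl2, Reln, Des and Sparc rose against the 12-week level, by 2.76-fold to 4.41-fold, and no gene of the 35 fell. Of all genes tested 2.23% were called in this comparison. Another 13 stood apart without being called, so 20 of 35 stood apart upwards and 0 downwards, where the shares over all genes were 3.25% and 2.33%. The difference was above 0 for 34 of 35, with a median of 1.19 against -0.01 over all genes. Timp3 was the exception at -0.63 ± 0.47 (SE). The number of calls depended on single arrays: it was 0 without the first 2-week array, 2 without the first and 3 without the second 12-week array, and 3 without either of the PH arrays, which enter through the shared estimate of spread.

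At 4 weeks the same comparison with the adult liver gave 1 called gene, Pcolce (1 higher, 0 lower), where 0.11% of all genes were called. Standing apart upwards were 19 of 35 genes and downwards 0, against 1.33% and 0.606% of all genes. The median difference was 1.05 against 0 over all genes, and 33 of 35 differences were above 0. Without the first 4-week array 6 genes stood apart upwards and 1 downwards, where all genes gave 3.2% and 1.34%. Without the second, 25 stood apart upwards and 0 downwards, against 1.65% and 0.73% of all genes. The count at 4 weeks thus depended on the first array.

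Between 2 and 4 weeks 0 of 35 genes were called by limma, with 5 at an unadjusted p under 0.05, and 0.455% of all genes were called. Mmp14 and Reln stood apart, both higher at 2 weeks, against 1.38% of all genes in that direction and 1.81% in the other. The median difference was 0.26 against 0 over all genes, with 21 genes higher at 2 weeks and 14 at 4 weeks. On the second 4-week array alone, only Lrat, Tagln, Pcolce, Bgn, Timp1 and Timp2 were above their 2-week mean. Without the first 4-week array 13 genes stood apart, all higher at 2 weeks, while all genes gave 2.24% upwards and 2.8% downwards. Without the second, 1 stood apart upwards and 5 downwards, against 2.02% and 2.29% of all genes. Without the second 2-week array 5 stood apart upwards and 0 downwards, where the shares over all genes were 2.65% and 1.94%.

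The liver 8 h after PH lay close to the 12-week liver for most of these genes. By limma 0 of 35 were called, 1 had an unadjusted p under 0.05, and 0.0345% of all genes were called. Timp1 was the only gene of the 35 that stood apart, upwards, against 1.1% of all genes upwards and 1.28% downwards. The median difference was 0.06, and 20 genes were above and 15 below 0. For 15 of the 35 the 95% interval of the difference lay within 2-fold either way, and for the other 20 it reached a 2-fold change, so 2 arrays a group could not show whether these 20 changed that far. Over all genes the interval lay within 2-fold for 9596 of 14511. The median SE was 0.39 for the 35 and 0.28 for all genes. Each SE pools the spread of all 4 groups, so the wide 4-week pair enters this comparison too. Col1a2, for example, had an SE of 0.56, with an SD of 0.08 after PH, 0.08 at 12 weeks and 1.49 at 4 weeks. After PH 2.86% of the 35 were at least 2-fold apart within the pair, against 2.98% of all genes. At 12 weeks these shares were 11.4% and 12.7%. Without the first 12-week array 2 genes stood apart upwards and 1 downwards, against 1.7% and 3% of all genes. Without the second PH array 2 stood apart upwards and 0 downwards, against 1.72% and 1.53%.

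Against the 2-week liver the liver after PH was lower for 32 of 35 genes, with a median of -0.95 against 0.03 over all genes. Pcolce, Col14a1, Loxl2, Mmp2, Eln and Reln were called lower and none of the 35 higher, where 2.16% of all genes were called. Standing apart downwards were 17 and upwards 0, against 3.78% and 2.38% of all genes. The number of calls was 0 without either of the PH arrays and 0 without the first 2-week array. This comparison uses the 2-week arrays again, so it is no separate evidence for their high levels.

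Against the 4-week liver Pcolce was the 1 gene called after PH, and it was lower, where 0.31% of all genes were called. Standing apart downwards were 14 genes and upwards 1, Mmp14, against 2.58% and 2.05% of all genes. The median difference was -0.89, with 31 of 35 below 0. Without the first 4-week array 6 stood apart downwards and 1 upwards, against 3.96% and 2.69% of all genes. Without the second, 23 stood apart downwards and 0 upwards, against 3.22% and 2.6%. Pcolce was not called without the first 4-week array or without either of the PH arrays.

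**Figure D1:**
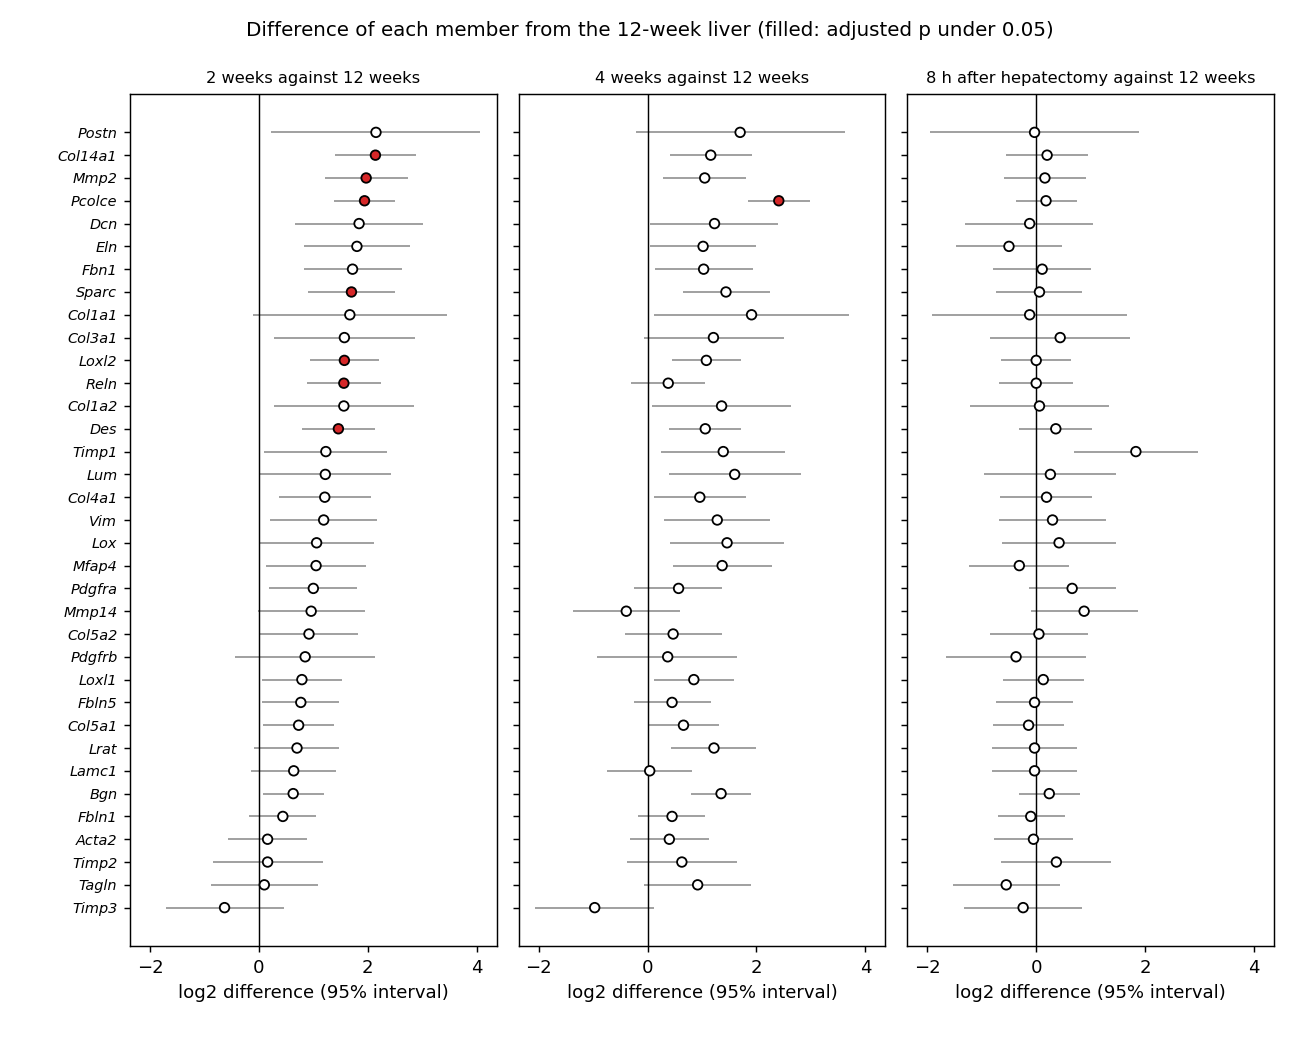
Log2 difference of each of the 35 genes from the 12-week liver, with its 95% interval from limma, at 2 weeks, at 4 weeks and 8 h after PH. Filled points are called, 7 at 2 weeks and Pcolce at 4 weeks, and none after PH, where Timp1 (1.83) lies furthest from 0.

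Among stellate cell markers, reelin and desmin rose at 2 weeks. Reln codes for reelin, a secreted glycoprotein used as a marker of stellate cells in liver. Its levels were 10.04 and 9.33 at 2 weeks, 8.68 and 8.33 at 4 weeks, 7.98 and 8.28 at 12 weeks, and 7.97 and 8.28 after PH. Both 2-week arrays were above every other array, and the PH and 12-week arrays covered the same range. Reln was 1.56 ± 0.30 higher at 2 than at 12 weeks (2.95-fold, adjusted p = 0.0373), and it was lower after PH than at 2 weeks by the same amount (-1.56 ± 0.30, adjusted p = 0.0376). Against 4 weeks the 2-week level differed by 1.18 ± 0.30 (adjusted p = 0.236), or 1.36 without the first 4-week array. Between PH and 12 weeks the difference was 0.00 with a 95% interval from -0.68 to 0.68.

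Desmin, an intermediate filament protein of muscle and of rat stellate cells, is encoded by Des. It was measured at 6.51 and 6.38 at 2 weeks, 6.43 and 5.64 at 4 weeks, 4.88 and 5.08 at 12 weeks, and 5.21 and 5.46 after PH. All 4 arrays from the younger rats were above the arrays of the other groups, and the 12-week arrays were lowest. The rise from 12 to 2 weeks was 1.46 ± 0.29 (2.76-fold, adjusted p = 0.0456). At 4 weeks the difference was 1.06 ± 0.29, with an adjusted p of 0.571, and it was 0.66 without the first array. On 1 of the 12-week arrays and on 1 other, Des lay under the 90th percentile of 1256 receptor genes of smell and pheromone sensing, used here as a guide to background, so its low levels may be near background.

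Lrat codes for lecithin retinol acyltransferase, which makes the retinyl esters that stellate cells store. Its levels were 9.60 and 8.79 at 2 weeks, 9.36 and 10.06 at 4 weeks, 8.30 and 8.69 at 12 weeks, and 8.43 and 8.50 after PH. The second 4-week array was the highest here, unlike for most of the 35 genes, and the 12-week and PH arrays were lowest. The difference from 12 weeks was 1.22 ± 0.34 at 4 weeks (adjusted p = 0.598) and 0.70 ± 0.34 at 2 weeks (adjusted p = 0.529), and neither was called. The 4-week difference was 1.57 without the first array of that group.

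The receptors for platelet-derived growth factor, a mitogen for stellate cells, were not called in any of the 6 comparisons. Pdgfrb stood at 9.13 and 8.35 at 2 weeks, 9.09 and 7.43 at 4 weeks, 8.43 and 7.36 at 12 weeks, and 7.62 and 7.41 after PH. The arrays of a group lay so far apart at 4 and 12 weeks that those groups overlapped with all others. After PH it was below 2 weeks without overlap (-1.22 ± 0.56, adjusted p = 0.468). Pdgfra ranged from 7.46 to 8.94, with the 12-week arrays lowest, and differed from 12 weeks by 1.00 ± 0.35 at 2 weeks, just under the 2-fold line, and by 0.66 ± 0.35 after PH.

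**Figure D2:**
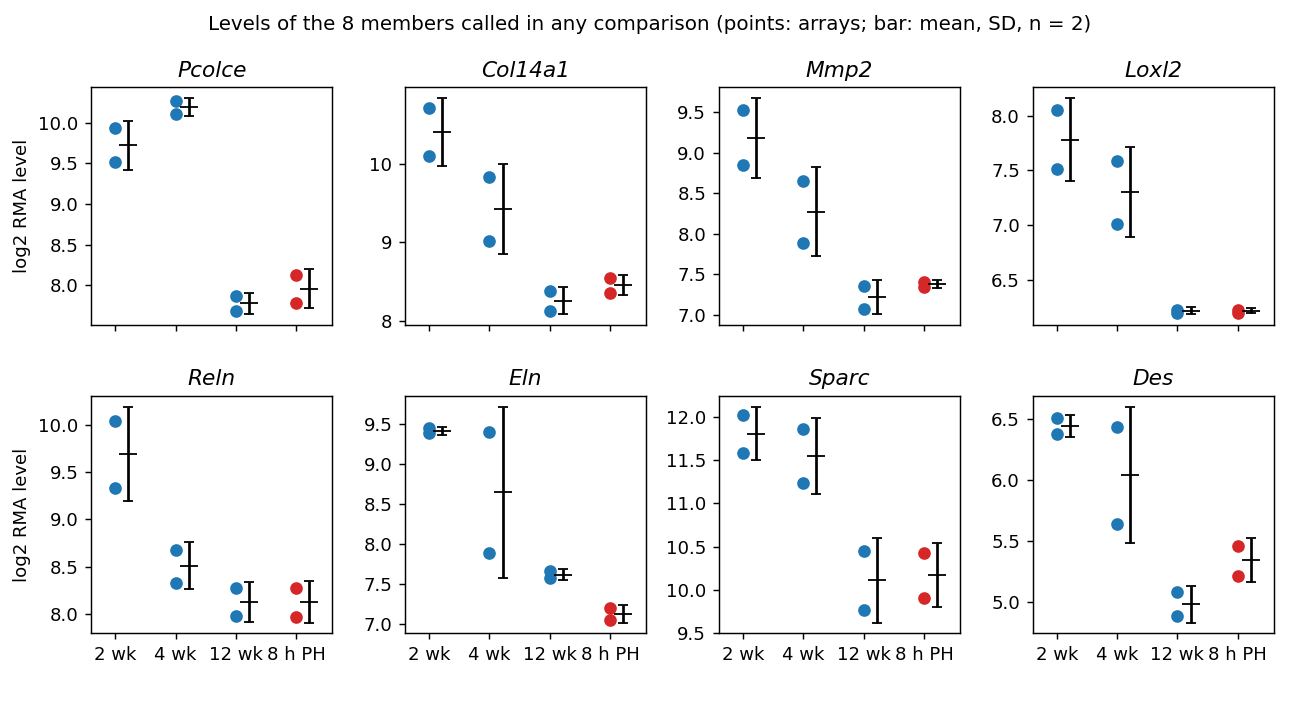
Log2 levels of the 8 genes called in any comparison, with a point per array and a bar for the mean and SD (n = 2) of each group (wk, weeks). Pcolce is high at 2 and 4 weeks (9.72 and 10.19) and low at 12 weeks and after PH (7.78 and 7.96), while Eln has widely separated points at 4 weeks (9.40 and 7.89).

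The contractile and cytoskeletal genes were not called in any comparison. Acta2, smooth muscle actin and the usual sign of stellate cell activation, ranged from 8.81 to 9.77 and differed from 12 weeks by 0.16 ± 0.31 at 2 weeks, 0.40 ± 0.31 at 4 weeks and -0.05 ± 0.31 after PH. Its highest level was on the first 4-week array, and without that array the 4-week difference was -0.08. Tagln, which codes for the actin-binding protein transgelin, was at 7.30 and 6.66 at 2 weeks, 8.49 and 7.11 at 4 weeks, 6.84 and 6.92 at 12 weeks, and 6.40 and 6.27 after PH. The PH arrays were the lowest and the 4-week arrays stood above those of 12 weeks. Between PH and 4 weeks it differed by -1.46 ± 0.43 (adjusted p = 0.268), and by -0.77 without the first 4-week array.

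Vim codes for vimentin, an intermediate filament protein of mesenchymal cells. Its levels were 10.33 and 9.61 at 2 weeks, 10.72 and 9.39 at 4 weeks, 8.92 and 8.64 at 12 weeks, and 9.11 and 9.06 after PH. Every array from 2 and 4 weeks was above every array of the other groups. The differences from 12 weeks were 1.19 ± 0.43 at 2 weeks (adjusted p = 0.308) and 1.28 ± 0.43 at 4 weeks (adjusted p = 0.82). The latter was 0.61 without the first 4-week array.

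The fibrillar collagens were higher at 2 weeks than at 12 weeks on every array, and 0 of the 5 were called. The shared estimate of spread takes in the 4-week pair as well. For Col1a2 the SD was 0.20 at 2 weeks, 0.08 at 12 weeks and 1.49 at 4 weeks. Col1a1 and Col1a2 code for the chains of type I collagen, the main collagen of scar tissue. Col1a1 was at 9.63 and 9.24 at 2 weeks, 11.15 and 8.19 at 4 weeks, 8.11 and 7.41 at 12 weeks, and 7.67 and 7.60 after PH. Its first 4-week array was 7.76-fold above the second and the highest of all 8, and the 4-week arrays otherwise stayed above those of 12 weeks by a small margin. The difference from 12 weeks was 1.67 ± 0.78 at 2 weeks (adjusted p = 0.496) and 1.91 ± 0.78 at 4 weeks (adjusted p = 0.999). Without the first 4-week array the 4-week difference was 0.43 (adjusted p = 0.946), and without the second it was 3.39 (adjusted p = 0.046).

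Col1a2 stood at 10.20 and 9.92 at 2 weeks, 10.91 and 8.81 at 4 weeks, 8.56 and 8.44 at 12 weeks, and 8.50 and 8.62 after PH. As for Col1a1, the second 4-week array lay between the 2-week arrays and the adult ones, and the first above all others. The difference was 1.56 ± 0.56 at 2 weeks (adjusted p = 0.309) and 1.36 ± 0.56 at 4 weeks, and 0.31 at 4 weeks without the first array. After PH it differed from 12 weeks by 0.06 ± 0.56.

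Col3a1, the chain of type III collagen, which is laid down with type I, was at 10.80 and 10.41 at 2 weeks, 11.27 and 9.23 at 4 weeks, 9.27 and 8.80 at 12 weeks, and 9.53 and 9.42 after PH. Here the second 4-week array lay below both PH arrays and below the first 12-week array. The difference from 12 weeks was 1.57 ± 0.56 at 2 weeks (adjusted p = 0.307), and 1.21 ± 0.56 at 4 weeks with 0.19 when the first array was left out. Col5a1 and Col5a2, chains of type V collagen, which sits inside type I fibrils, ranged from 6.59 to 7.82 and from 6.78 to 8.07. They differed from 12 weeks by 0.73 ± 0.28 and 0.92 ± 0.39 at 2 weeks.

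Col14a1, a collagen that binds to the surface of fibrils, was the collagen that passed the test. Its SD at 4 weeks was 0.57, against 1.49 for Col1a2, and this spread enters the test of every comparison. It was measured at 10.70 and 10.09 at 2 weeks, 9.83 and 9.02 at 4 weeks, 8.13 and 8.38 at 12 weeks, and 8.36 and 8.55 after PH. Both 2-week arrays were above both 4-week arrays, which in turn were above all others, while PH and 12 weeks overlapped. The rise at 2 over 12 weeks was 2.14 ± 0.33 (4.41-fold, adjusted p = 0.0152), and the level after PH was lower than at 2 weeks by 3.84-fold (-1.94 ± 0.33, adjusted p = 0.0243). At 4 weeks it differed from 12 weeks by 1.16 ± 0.33 (adjusted p = 0.596), or by 0.76 with the first array of that group left out. Without the first 2-week array the 2-week difference was 1.83 (adjusted p = 0.118).

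Of the basement membrane genes, Col4a1, a chain of the type IV collagen network, ranged from 6.49 to 8.37 and stood apart at 2 against 12 weeks by 1.21 ± 0.37 (adjusted p = 0.197). Lamc1, a laminin chain, ranged from 7.23 to 8.42 and differed by 0.64 ± 0.34 in that comparison. Both had their highest level on the first 2-week array, and neither was called in any comparison.

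Pcolce was the gene called most often, in 4 of the 6 comparisons. It codes for procollagen C-endopeptidase enhancer, a secreted protein that speeds the removal of the carboxyl end of fibrillar procollagens. Its levels were 9.93 and 9.51 at 2 weeks, 10.27 and 10.11 at 4 weeks, 7.87 and 7.69 at 12 weeks, and 8.13 and 7.79 after PH. Every array from 2 and 4 weeks was above every array of the other groups, and the 4-week pair lay close together. Against 12 weeks Pcolce rose by 1.94 ± 0.25 at 2 weeks (3.84-fold, adjusted p = 0.00744) and by 2.41 ± 0.25 at 4 weeks (5.32-fold, adjusted p = 0.0127).

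After PH Pcolce was lower than at 2 weeks by 3.38-fold (-1.76 ± 0.25, adjusted p = 0.0107) and lower than at 4 weeks by 4.68-fold (-2.23 ± 0.25, adjusted p = 0.0173), with a difference of -2.15 without the first 4-week array (adjusted p = 0.157). It differed from 12 weeks by 0.18 after PH, with a 95% interval from -0.38 to 0.75, and the 2-week level differed from that at 4 weeks by -0.47 ± 0.25, or by -0.39 without the first 4-week array. Unlike Col1a1, its 4-week difference hardly moved with the array left out, at 2.33 without the first (adjusted p = 0.139) and 2.49 without the second (adjusted p = 0.0873). Without the second 12-week array its adjusted p at 4 weeks was 0.0506. Without the first 2-week array the 2-week difference was 1.73 (adjusted p = 0.065).

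The stretches before the start sites of Pcolce, Postn and Col1a2 are shown because Pcolce was the most often called and the other two had the widest 4-week gap between arrays among genes with a sequence. Each is 250 bases long, ends at the base before the RefSeq start on the GRCr8 build and is given 5′ to 3′ on the plus strand, which is the strand of all 3 genes. Capitals mark TATAAA and CCAAT, the latter read as ATTGG when it lies on the other strand. Pcolce lies at chr12:24720722-24720971, Postn at chr2:140677811-140678060 and Col1a2 at chr4:33518307-33518556.
Pcolce: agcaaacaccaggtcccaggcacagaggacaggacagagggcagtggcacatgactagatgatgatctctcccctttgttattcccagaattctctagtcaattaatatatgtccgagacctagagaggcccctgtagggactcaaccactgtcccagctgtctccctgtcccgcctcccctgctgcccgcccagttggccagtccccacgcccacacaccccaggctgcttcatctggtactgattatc
Postn: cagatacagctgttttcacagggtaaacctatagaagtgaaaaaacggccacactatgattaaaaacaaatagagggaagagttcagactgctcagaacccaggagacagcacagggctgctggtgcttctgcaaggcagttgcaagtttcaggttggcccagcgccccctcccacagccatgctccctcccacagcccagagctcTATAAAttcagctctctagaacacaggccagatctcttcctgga
Col1a2: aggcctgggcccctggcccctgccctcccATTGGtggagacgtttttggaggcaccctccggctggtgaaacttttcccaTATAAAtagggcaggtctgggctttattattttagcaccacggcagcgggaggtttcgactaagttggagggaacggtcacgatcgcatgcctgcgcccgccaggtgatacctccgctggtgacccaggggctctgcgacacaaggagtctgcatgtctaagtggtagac

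The Postn stretch held TATAAA from 44 to 39 bases before the start, and that of Col1a2 held it from 170 to 165 bases before and CCAAT on the other strand from 221 to 217. The Pcolce stretch held neither, and it held GGGCGG on the other strand from 63 to 58 bases before the start. An upstream sequence was found for 21 of the 35 genes. Searched on both strands, TATAAA was in 3 of the 21 (14.3%; Col1a2, Postn and Vim) and in 11.2% of 11951 tested genes with a sequence. CCAAT was in 7 (33.3%) against 35.6%, and GGGCGG in 12 (57.1%) against 47.3%. These counts describe letters in a window and say nothing on whether a factor binds there. Distances are counted from the RefSeq start, which was not checked against the base where transcription begins.

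The lysyl oxidases, which cross-link collagen and elastin, had 1 called member. Loxl2 was at 8.05 and 7.51 at 2 weeks, 7.59 and 7.01 at 4 weeks, and 6.20 and 6.23 both at 12 weeks and after PH. Its adult and PH levels were the same to the second decimal, and all arrays from young rats were above them. The rise at 2 over 12 weeks was 1.57 ± 0.28 (2.96-fold, adjusted p = 0.0273), and after PH Loxl2 was lower than at 2 weeks by -1.57 ± 0.28 (adjusted p = 0.029). The 4-week difference of 1.08 ± 0.28 was not called (adjusted p = 0.501), and it was 0.79 without the first 4-week array.

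Lox, the founding lysyl oxidase, stood at 6.54 and 5.91 at 2 weeks, 7.33 and 5.93 at 4 weeks, 5.49 and 4.85 at 12 weeks, and 5.50 and 5.67 after PH. The young arrays were above the adult ones, the first 4-week array most of all, and both 12-week arrays were in the range of the receptor genes. Its difference from 12 weeks was 1.06 ± 0.46 at 2 weeks (adjusted p = 0.442) and 1.46 ± 0.46 at 4 weeks (adjusted p = 0.734), or 0.76 without the first 4-week array. Loxl1, needed for elastic fibres, ranged from 5.78 to 7.15 and differed by 0.79 ± 0.32 at 2 weeks and 0.85 ± 0.32 at 4 weeks, or 0.34 at 4 weeks without the first array. It lay in the range of the receptor genes on 1 of the 12-week arrays.

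The small leucine-rich proteoglycans, which bind collagen fibrils and set their width, were not called. Dcn, decorin, was at 7.78 and 9.04 at 2 weeks, 7.99 and 7.61 at 4 weeks, 5.96 and 7.20 at 12 weeks, and 6.12 and 6.78 after PH. The young arrays were above all others despite gaps of over 2-fold within the 2-week and the 12-week pair. Dcn lay under the 90th percentile of the receptor genes on 1 of the 12-week arrays. It differed from 12 weeks by 1.84 ± 0.51 at 2 weeks (adjusted p = 0.154) and by 1.23 ± 0.51 at 4 weeks, where leaving out the first 4-week array gave 1.04 and leaving out the first 12-week array 0.61. After PH it differed from 2 weeks by -1.96 ± 0.51 (adjusted p = 0.125).

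Lum, lumican, had low levels of 5.27 and 4.79 at 2 weeks, 6.37 and 4.46 at 4 weeks, 3.69 and 3.94 at 12 weeks, and 4.01 and 4.14 after PH. On 6 of the 8 arrays these lay under the 90th percentile of the receptor genes, both 12-week arrays included, so its differences of 1.22 ± 0.53 at 2 weeks and 1.60 ± 0.53 at 4 weeks may be compressed. The latter was 0.64 without the first 4-week array.

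Bgn, biglycan, had its highest levels at 4 weeks, at 10.97 and 11.27, against 10.59 and 10.22 at 2 weeks, 9.74 and 9.80 at 12 weeks, and 10.17 and 9.85 after PH. The second 4-week array was the higher of its pair, and both were above all other arrays. Its 4-week difference from 12 weeks was 1.35 ± 0.24 (2.54-fold, adjusted p = 0.191), and 1.5 without the first 4-week array. The 2-week difference was 0.63 ± 0.24 (adjusted p = 0.361).

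Elastin, the core of elastic fibres, was highest at 2 weeks. Eln was at 9.46 and 9.39 at 2 weeks, 9.40 and 7.89 at 4 weeks, 7.67 and 7.58 at 12 weeks, and 7.20 and 7.05 after PH. The PH arrays were the lowest of all and the 2-week arrays lay close together. Eln was lower after PH than at 2 weeks by 4.91-fold (-2.30 ± 0.42, adjusted p = 0.0345). The 2-week level differed from 12 weeks by 1.80 ± 0.42, with an adjusted p of 0.0877, and that after PH from 12 weeks by -0.50 ± 0.42. At 4 weeks the difference was 1.02 ± 0.42, or 0.27 without the first 4-week array.

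Fbn1 codes for fibrillin, the scaffold of microfibrils. It stood at 9.14 and 8.34 at 2 weeks, 8.57 and 7.54 at 4 weeks, 7.17 and 6.86 at 12 weeks, and 6.94 and 7.31 after PH. The young arrays were above all others, and the 2-week difference from 12 weeks was 1.72 ± 0.39 (adjusted p = 0.0788). At 4 weeks it was 1.03 ± 0.39, or 0.52 without the first array.

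Mfap4, a microfibril-associated glycoprotein, was at 7.94 and 7.10 at 2 weeks, 8.26 and 7.43 at 4 weeks, 6.16 and 6.78 at 12 weeks, and 5.93 and 6.39 after PH. Both young groups were above both others without overlap, by 1.05 ± 0.40 at 2 weeks and 1.37 ± 0.40 at 4 weeks against 12 weeks, with adjusted p of 0.353 and 0.621. The 4-week difference was 0.96 without the first array. Fbln1 and Fbln5, fibulins of elastic fibres, ranged from 6.15 to 7.08 and from 7.51 to 8.83. They differed from 12 weeks by 0.44 ± 0.27 and 0.77 ± 0.31 at 2 weeks.

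Sparc and Postn are matricellular proteins, which sit in the matrix and tune how cells and fibres interact. Sparc was measured at 12.03 and 11.59 at 2 weeks, 11.86 and 11.24 at 4 weeks, 10.45 and 9.77 at 12 weeks, and 10.43 and 9.91 after PH. The young arrays were all above the others, and the PH and 12-week arrays covered nearly the same range. It rose by 1.70 ± 0.35 at 2 over 12 weeks (3.26-fold, adjusted p = 0.0483). The 4-week difference was 1.44 ± 0.35 (adjusted p = 0.433), or 1.13 without the first array, and after PH the difference from 2 weeks was -1.64 ± 0.35 (adjusted p = 0.056).

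Postn, periostin, stood at 7.0 and 5.71 at 2 weeks, 7.42 and 4.40 at 4 weeks, 4.28 and 4.13 at 12 weeks, and 4.37 and 3.98 after PH. It had the widest gap of the 35 genes at 4 weeks, 8.06-fold, and 5 arrays, both 12-week ones included, lay in the range of the receptor genes. Its 2-week difference from 12 weeks was 2.15 ± 0.84 (adjusted p = 0.369). The 4-week difference was 1.70 ± 0.84, 0.20 without the first array and 3.21 without the second.

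Genes of matrix turnover differed among themselves. Mmp2, a gelatinase made by stellate cells, was at 9.53 and 8.84 at 2 weeks, 8.65 and 7.88 at 4 weeks, 7.07 and 7.36 at 12 weeks, and 7.34 and 7.41 after PH. The order of the groups was that of Col14a1, with 2 weeks above 4 weeks and both above the rest. It rose by 1.97 ± 0.33 at 2 over 12 weeks (3.91-fold, adjusted p = 0.023), and it was lower after PH than at 2 weeks by 3.49-fold (-1.81 ± 0.33, adjusted p = 0.0333). The 4-week difference of 1.05 ± 0.33 was not called (adjusted p = 0.739), and it was 0.66 without the first array.

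Mmp14, the membrane protease that activates pro-Mmp2, followed another order. It stood at 10.82 and 10.54 at 2 weeks, 10.07 and 8.60 at 4 weeks, 9.86 and 9.58 at 12 weeks, and 10.74 and 10.46 after PH. The 2-week and PH arrays overlapped and were above all others. The differences were 1.35 ± 0.43 for 2 against 4 weeks (adjusted p = 0.432), 1.27 ± 0.43 for PH against 4 weeks (adjusted p = 0.342) and 0.88 ± 0.43 for PH against 12 weeks (adjusted p = 0.902). Without the first 4-week array the first of these was 2.09 and the second 2.00, and without the second array 0.61 and 0.53.

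Timp1, an inhibitor of metalloproteinases that is also induced in acute-phase responses, was at 7.09 and 7.53 at 2 weeks, 7.31 and 7.63 at 4 weeks, 5.39 and 6.77 at 12 weeks, and 7.36 and 8.47 after PH. The 12-week arrays were the lowest, with the first far below the second, and the second PH array was the highest. Timp1 lay under the 90th percentile of the receptor genes on 1 of the 12-week arrays, so its level there may be near background. The difference between PH and 12 weeks was 1.83 ± 0.50 (3.56-fold, adjusted p = 0.429), and its unadjusted 95% interval ran from 0.69 to 2.97. Leaving out the first or the second 12-week array made it 1.14 or 2.52, and leaving out the first or the second PH array made it 2.39 or 1.28. At 2 and 4 weeks the differences from 12 weeks were 1.23 ± 0.50 and 1.39 ± 0.50, the latter 1.55 without the first 4-week array.

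The other inhibitors were not called. Timp2 ranged from 6.94 to 8.44 and differed from 12 weeks by 0.16 ± 0.44 at 2 weeks and 0.37 ± 0.44 after PH. Timp3, which is bound to matrix, ranged from 7.50 to 9.27 with its highest level on the second 12-week array. Its 2-week difference of -0.63 ± 0.47 was 0.15 without that array.

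**Figure D3:**
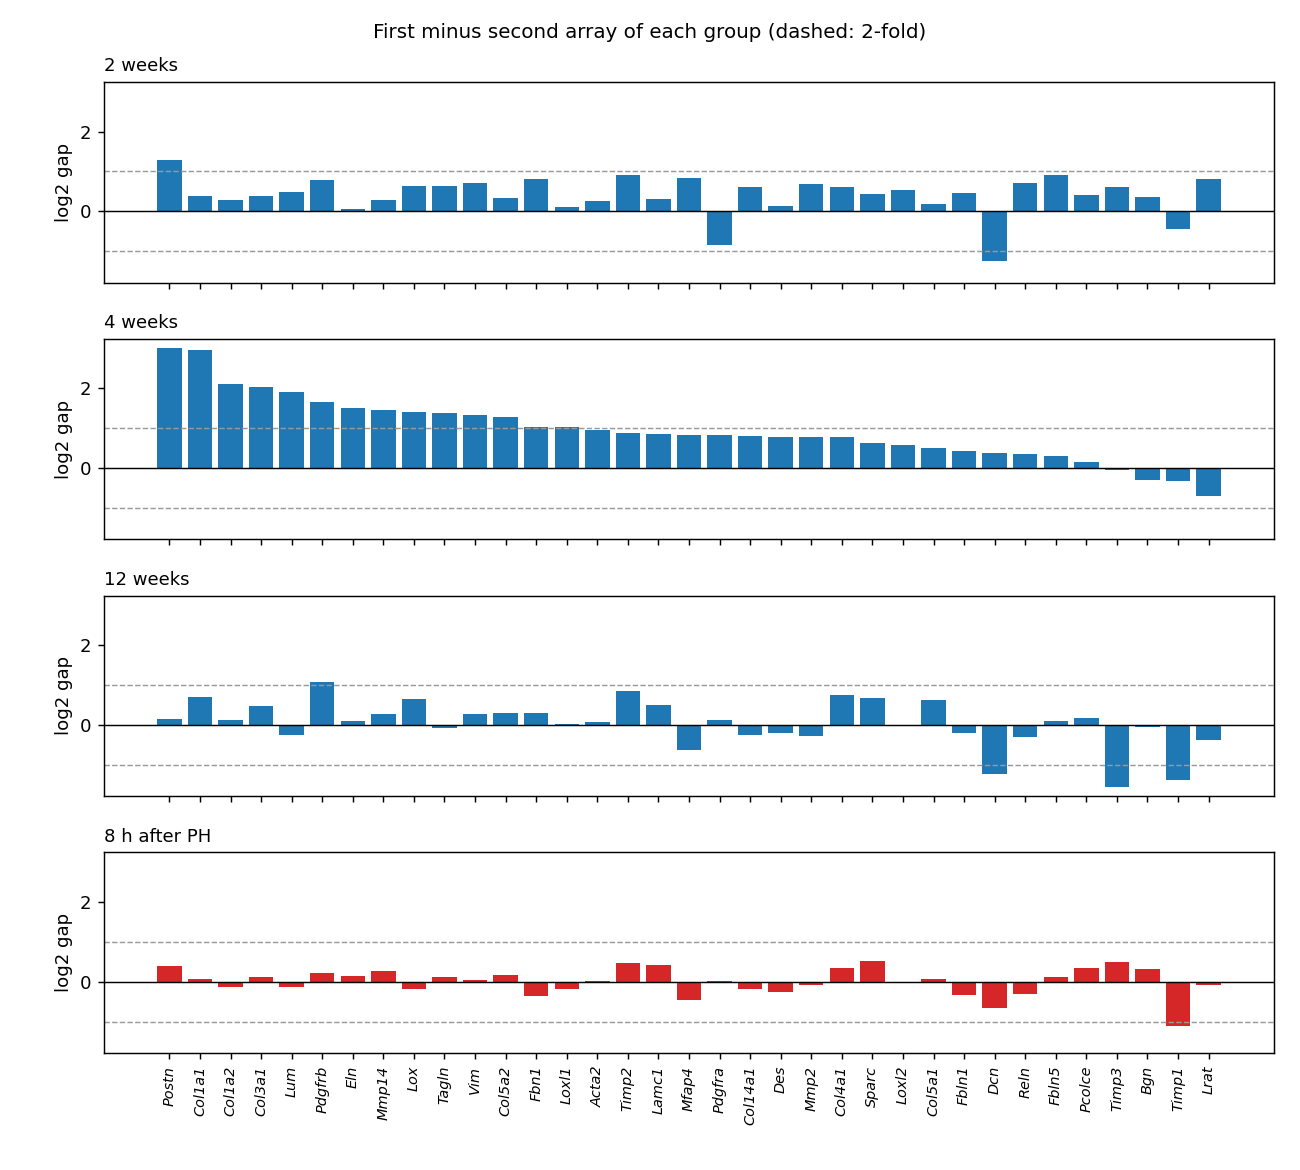
Level on the first array minus level on the second (log2) for each of the 35 genes in each group, in the order of the 4-week gaps, with dashed lines at 2-fold. At 4 weeks 14 bars pass 2-fold upwards, from Postn (3.01) to Loxl1 (1.02), against 1 after PH (Timp1, downwards).

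The 4-week gaps ran from 3.01 for Postn and 2.96 for Col1a1 down to -0.70 for Lrat. By role, 4 of 5 fibrillar collagens were at least 2-fold higher on the first array, with a median of 2.05, while Pcolce, Bgn and Lrat differed little or lay higher on the second. At 2 weeks the first array was also higher for most, 32 of 35 genes, by a median of 0.45. Over all genes it was higher for 7462 of 14511, with a median of 0.01. Of the 35, 2 genes (Postn and Dcn) differed at least 2-fold, 5.71% against 3.31% of all genes. After PH the median gap was 0.05, and at 12 weeks it was 0.10 with 4 genes at least 2-fold apart, 11.4% against 12.7% of all genes.

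Marker lists of other cells differed in how far the first 4-week array stood above the second. The median gap was 0.10 over 10 hepatocyte genes, -0.06 over 9 endothelial genes, -0.38 over 10 macrophage genes, -0.17 over 8 erythroid genes and -0.13 over 8 lymphocyte genes. It was 0.27 over 6 vascular smooth muscle genes, 0.39 over 8 cholangiocyte genes and 0.45 over 9 genes of portal fibroblasts and mesothelium, with 1 gene of each of these lists at least 2-fold higher on the first array. The portal list shares Eln with the 35 and Krt19 with the cholangiocyte list, and Eln was its 1 gene at least 2-fold higher. On the summed scale (log2 of the sum of levels) the cholangiocyte list was 12.33 on the first array and 10.49 on the second, where Spp1 was at 11.77 and 5.83. The portal list was 11.11 and 10.59 on that scale and the smooth muscle list 9.61 and 9.25, and the median level of the smooth muscle list was 7.0 and 6.17. The 35 genes themselves summed to 14.64 and 13.79. The part of these cells in the 4-week gap was not tested.

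Other genes of the same pathways, outside the 35, gave a few calls. Among 21 collagen-modifying enzymes and chaperones, Adamts2, which trims the amino end of procollagen (1.53 ± 0.26, adjusted p = 0.0234), and P3h2, a collagen prolyl hydroxylase (1.24 ± 0.23, adjusted p = 0.0331), rose at 2 over 12 weeks. Loxl4, a lysyl oxidase homologue, fell by 2.05 (SE 0.29, adjusted p = 0.0111), opposite in direction to Loxl2. Of 32 other matrix proteins 3 rose and 0 fell at 2 weeks, namely Igfbp7 (1.53), Mfap2 (1.20) and Fstl1 (1.49). Of all genes 1.29% were called higher and 0.937% lower in this comparison. The median difference was 0.27 and 0.25 for these lists, against 1.19 for the 35 genes.

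Of 15 genes of TGF-beta and PDGF signalling, which drive collagen synthesis and stellate cell growth, Tgfbr3 rose at 2 over 12 weeks by 1.20 ± 0.21 (adjusted p = 0.0271). Of 11 matrix receptors Itgb3, an integrin chain, rose by 1.45 ± 0.24 (adjusted p = 0.0219). Of 13 further stellate cell genes Hgf, the hepatocyte growth factor made by these cells, rose by 1.30 ± 0.21 (adjusted p = 0.0181). None of these 3 lists had a gene that was called lower. Their median differences were 0.16, 0.22 and 0.52 in that order. Of the 13 stellate cell genes 5 stood apart upwards (Bmp5, Colec10, Colec11, Hgf and Tcf21) and 0 downwards, against 3.25% and 2.33% of all genes. Among 15 other proteases and inhibitors limma called 0, with 2 at an unadjusted p under 0.05, and Mmp8 alone stood apart (1.68 ± 0.60, adjusted p = 0.306). The median difference of this list was 0.46.

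After PH against 2 weeks, Loxl4 was higher by 2.21 ± 0.29 (adjusted p = 0.00833), while Adamts2 (-1.32), Fstl1 (-1.59), Nid2 (-1.49) and Tgfbi (-1.37) were lower. Of all genes 0.793% were called higher and 1.36% lower there. In the comparisons of PH with 12 or 4 weeks, of 4 with 12 weeks and of 2 with 4 weeks, limma called 0 genes in these 6 lists. Hgf after PH differed from 12 weeks by 1.11 ± 0.21 (adjusted p = 0.183). At 4 weeks Plod2, a collagen lysyl hydroxylase, differed from 12 weeks by 1.66 ± 0.42 (adjusted p = 0.501) and Serpinh1, the collagen chaperone, by 1.18 ± 0.38 (adjusted p = 0.745).

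Markers of other cell types were compared between 2 and 12 weeks, where 2.23% of all genes were called. Limma called 0 of 9 portal fibroblast and mesothelium genes (5 at an unadjusted p under 0.05, median 0.71). Of these, Gpm6a (1.86 ± 0.46), Eln (1.80 ± 0.42) and Krt19 (1.11 ± 0.52) stood apart upwards, and Gas6 (-1.04 ± 0.37) downwards. Over all genes 3.25% stood apart upwards and 2.33% downwards. Eln is also among the matrix genes followed here, and Krt19 is also in the cholangiocyte list. Limma called 0 of 6 smooth muscle genes (1 under 0.05, median 0.12). It called 0 of 9 endothelial genes (1, median 0.29), 0 of 10 hepatocyte genes (1, median 0.02) and 0 of 8 cholangiocyte genes (1, median 0.00). In the cholangiocyte list Krt19 stood apart upwards and Onecut1 (-1.29 ± 0.40) downwards. Of 10 macrophage genes limma called 0 (1, median 0.10), and Marco stood apart by 2.27 ± 0.57 (adjusted p = 0.112). Of 8 lymphocyte genes it called 0 (4, median -0.77), and Cd2 stood apart by -1.03 ± 0.35.

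Erythroid markers were also higher in young liver. Ahsp (3.14 ± 0.56), Alas2 (2.74 ± 0.35) and Slc4a1 (2.01 ± 0.36) rose at 2 over 12 weeks, and the median over 8 genes was 1.88. These were 3 of 8 genes called higher and 0 lower, against 1.29% and 0.937% of all genes. The summed level of the list was 11.39 and 10.58 at 2 weeks, 10.04 and 10.28 at 4 weeks, 9.0 and 9.08 at 12 weeks, and 8.77 and 8.61 after PH. That of the 35 genes was 14.56 and 14.15, 14.64 and 13.79, 13.20 and 13.08, and 13.40 and 13.27 in the same order. The summed level of the hepatocyte list lay between 16.44 and 16.66 on all arrays. The part of cell makeup in the matrix results was not tested.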

How the data were processed

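The values are log2 levels that the authors deposited. The submitters' processing notes name RMA (robust multi-array averaging, which corrects background, equalises arrays and summarises probes) and Affymetrix Expression Console. Versions and genome build: not given in the sources used here. RMA compresses differences near background, and the number of arrays limits the precision. Levels of different probe sets cannot be compared.

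Of 29214 probe sets 15316 listed 1 gene symbol in the platform annotation and 317 several, and the latter were left out. Where a gene had several probe sets, the one with the highest mean was used, which gave 14511 genes. Each of the 35 genes had 1 probe set. With limma 3.58.1 in R 4.3.3, lmFit and eBayes fitted 1 model of the 4 groups over 8 arrays (4 residual and 4.27 prior degrees of freedom), and the 6 pairwise contrasts share arrays. P-values were two-sided and adjusted by Benjamini-Hochberg over all genes. The steps were tested on simulated data. The 24 alternatives covered normalisation, low-level filters, probe set choice, variance model, covariates, thresholds and each array left out. None of them was run for the lists outside the 35.

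Array values are given for the 24 genes with the widest differences among those called or standing apart in any comparison. Of the other lists, called genes or those standing furthest apart are named. The 35 genes and all lists were chosen with earlier results of these data known. Upstream sequences and gene names came from RefSeq (GRCr8).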

Additional observations from a re-analysis of the deposited data

How the results depend on the processing

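All 15 called differences of the 35 genes kept their sign under every alternative run for them (24 each, and 23 for Des, which a filter on low levels removed). The most often called was Pcolce at 2 over 12 weeks, in 23 of 24 (adjusted p from 0.00185 to 0.065), and the least was Sparc, in 10 of 24 (0.00327 to 0.316). For 2 against 12 weeks the 7 calls became 2 with all probe sets of the table, 2 with array weights, 3 with only the 2 groups compared and 1 at an adjusted p under 0.01. For PH against 2 weeks the 6 calls became 1 with all probe sets and 0 at 0.01. For 4 against 12 weeks the 1 call became 0 with only the 2 groups and 0 at 0.01, and for PH against 4 weeks it became 0 at 0.01. With the receptor gene level of each array as a covariate, PH against 4 weeks gave 2 calls and PH against 12 weeks 1, Timp1. At a 1.5-fold line, 3 genes stood apart for PH against 12 weeks (all upwards, where 4.05% of all genes did), 6 for 2 against 4 weeks (5 upwards and 1 downwards, against 5.55% and 4.52%), 27 for PH against 2 weeks (all downwards, against 8.93%) and 24 for PH against 4 weeks (22 downwards and 2 upwards, against 7.11% and 7.15%). The calls are given without the count over all genes in the same setting, so they show only how stable the calls were. The cause of these moves was not tested.

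Leaving out each array in turn, calls ranged from 0 to 8 for 2 against 12 weeks, 0 to 7 for PH against 2 weeks, and 0 to 1 for 4 against 12 weeks and for PH against 4 weeks, and they stayed at 0 for PH against 12 weeks and 2 against 4 weeks. Genes standing apart ranged from 16 to 25 for 2 against 12 weeks, 7 to 25 for 4 against 12 weeks, 3 to 13 for 2 against 4 weeks, 1 to 3 for PH against 12 weeks, 13 to 22 for PH against 2 weeks and 7 to 23 for PH against 4 weeks.

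With the replicate number of the titles as a block, calls were 11 for 2 against 12 weeks, 2 for 4 against 12 weeks, 10 for PH against 2 weeks and 2 for PH against 4 weeks. Deviations of same-numbered arrays correlated by 0.02 to 0.57 between groups. The labels give the numbers no shared animal or day, so the block was not used. The counts under the block and the ranges with an array left out come without the shares over all genes. They therefore show only how stable the results were.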

Other observations

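The first 4-week array also stood above the second for genes outside the 35, some of them of the matrix, named here after their values were seen. Spp1, which codes for osteopontin, was at 11.77 against 5.83, and between 5.52 and 6.99 on the other 6 arrays. Mmp12, macrophage elastase, was at 8.67 against 4.81. These were the widest gaps among the 200 genes at least 2-fold higher on the first array, and Postn came next. In either direction 621 of all genes were at least 2-fold apart at 4 weeks, so more of them were higher on the second array. Others were Lyz2 (10.29 against 8.39), Gpnmb (10.76 against 8.91), Ctsk, the collagen-degrading cathepsin K (8.71 against 6.87), Cthrc1 (6.40 against 4.61) and Ccl2 (7.16 against 5.41). The macrophage marker list had a median gap of -0.38, with 0 of 10 genes at least 2-fold higher on the first array.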
